A study of Mus musculus with 12 samples.

Results

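The genes described here are the D-type cyclins, their kinases CDK4 and CDK6, the inhibitors of these kinases and Rb1, 10 genes in all: Ccnd1, Ccnd2, Ccnd3, Cdk4, Cdk6, Cdkn2a, Cdkn2b, Cdkn2c, Cdkn1b and Rb1. They were taken by name, and each is listed in both deposited tables, which hold 43280 and 23930 entries. All RNA came from mouse embryonic fibroblasts (MEF) of C57BL/6 background, prepared at embryonic day 13.5; repeated passaging, with no gene introduced for the purpose, had yielded the immortal cells. In the stable experiment, 2MUT cells carried a retrovirus for FLAG-tagged mutant human IDH2 and were compared with Control cells, which carried the empty retrovirus; both were selected in puromycin. In the acute experiment, cells received 300 μM of membrane-permeant 2-HG for 24 h, 2-HG(+), or not, 2-HG(-); the labels name DMSO as the treatment of the 2-HG(-) cells, whereas the paper calls them non-treated. Each of the 4 groups had 3 libraries, and no source used here says whether these came from separate transductions or cultures, so p-values measure the spread between libraries, which may be technical.

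Cyclin D1, D2 and D3 bind CDK4 or CDK6 in response to growth factors, and the active kinases phosphorylate the retinoblastoma protein RB, which otherwise holds E2F transcription factors inactive. Proteins of the INK4 family, p16 from Cdkn2a, p15 from Cdkn2b and p18 from Cdkn2c, bind CDK4 and CDK6 and block them, while p27 from Cdkn1b inhibits cyclin E-CDK2 and also binds cyclin D complexes. Cdkn2a encodes a further protein, ARF, from another first exon and reading frame, which restrains MDM2 and so stabilises p53. In fibroblasts grown by serial passage the products of the Cdkn2a locus accumulate and limit growth, and immortal lines typically escape through loss of ARF or of p53.

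Values are RPM, the read count of each listed entry scaled to a library total of 1000000. The positions of the amplified targets were not available, so a gene's values may come from different parts of its transcript in the 2 experiments. The depth was between 6472439 and 7313602 reads in the stable experiment and between 14959318 and 18363768 reads in the acute one. Of 11 fibroblast markers, 9 reached a mean of 1 RPM in the stable experiment, with S100a4 and Prrx1 below it, and in the acute experiment all 9 markers listed reached it. Their summed level was 14574 to 16552 RPM in Control and 13141 to 13566 RPM in 2MUT, and 21853 to 23504 RPM in 2-HG(-) and 15440 to 16529 RPM in 2-HG(+). Single markers went both ways (limma, adjusted p under 0.05). In 2MUT, Fn1 was called higher, and Col1a1, Col1a2, Col3a1, Pdgfrb, Thy1, Vim and Twist1 lower. With 2-HG, Thy1 was called higher, and Col1a2, Col3a1, Pdgfra and Pdgfrb lower. None of 6 epithelial markers reached 1 RPM in either table, and Epcam and Krt18 were listed at 0 in every library. The summed markers of endothelial, haematopoietic and myogenic cells stayed at or under 13.6 RPM in every library. The sum of 5 neural markers, of which 3 reached 1 RPM, was 59.6 to 72.6 RPM in Control and 46.6 to 55.6 RPM in 2MUT, and 39.0 to 47.6 RPM in 2-HG(-) and 58.9 to 63.7 RPM in 2-HG(+), without overlap in either experiment. The sum hides opposite moves: with 2-HG, Nes and Tubb3 were called higher and Map2 lower. In 2MUT, Nes was called lower, while Tubb3 and Map2 were not called. The part of these marker levels in the results was not tested. The endogenous mouse Idh2, which the human transgene leaves in place, had mean levels of 77.3 ± 5.54 RPM in Control against 49.6 ± 6.39 RPM in 2MUT (SD, n = 3 each), and whether reads of the transgene were counted on it was not analysed here.

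Of the 10 genes, 5 changed in 2MUT and 5 with 2-HG, and Cdkn2b and Cdkn2c were in both sets. In 2MUT, Ccnd2, Cdkn2b and Rb1 were higher and Ccnd1 and Cdkn2c were lower than in Control (limma, Benjamini-Hochberg adjusted p under 0.05 over all genes tested). In 2-HG(+), Cdk4 was higher and Cdkn2a, Cdkn2b, Cdkn2c and Cdkn1b were lower than in 2-HG(-). Among all genes tested in 2MUT, 16.5% were called higher and 17.3% lower, against 3 and 2 of the 10 genes. With 2-HG, the shares over all genes were 16.1% higher and 16.7% lower, against 1 and 4 of the 10 genes. The median log2 fold change of the 10 genes was 0.18 in 2MUT, where that of all genes was 0.01, and -0.07 with 2-HG, where that of all genes was -0.02. Fold changes are on log2(RPM + 1), a scale that shrinks changes at low RPM, and since these are bulk samples, fewer cells with a transcript and less of it in each cell cannot be told apart.

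**Figure D1:**
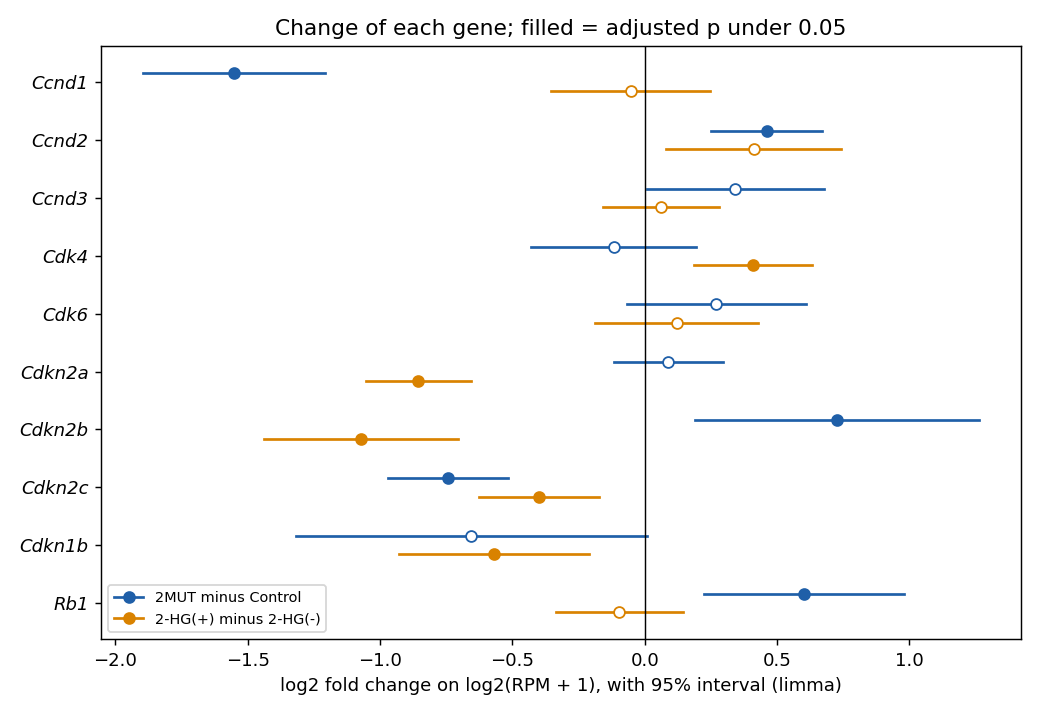
Log2 fold change of each of the 10 genes (x axis, on log2(RPM + 1)) with its 95% interval from limma, in blue for 2MUT minus Control and in orange for 2-HG(+) minus 2-HG(-); filled points passed an adjusted p of 0.05. Cdkn2b lies on opposite sides of 0 in the comparisons, Cdkn2c lies below 0 in both, and Ccnd1 lies at -1.55 in 2MUT and at -0.05 with 2-HG.

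Ccnd1, the gene of cyclin D1, at 144929931 to 144939925 of chromosome 7 (GRCm38, reverse strand), showed the largest fall of the 10 genes in 2MUT. Its Control libraries stood at 28.7, 37.9 and 33.9 RPM and its 2MUT libraries at 11.0, 11.3 and 9.91 RPM. The lowest Control library was therefore above every 2MUT library, and the mean was 3.13-fold higher in Control. The log2 fold change was -1.55 (standard error 0.16, adjusted p = 3.8e-05), and it lay between -1.65 and -1.46 when each library was left out in turn. The 2-HG(-) libraries were at 79.1, 79.8 and 60.2 RPM and the 2-HG(+) libraries at 62.3, 73.9 and 73.7 RPM. These groups overlapped, and the log2 fold change of -0.05 had a 95% interval from -0.35 to 0.25 (limma adjusted p = 0.79).

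Ccnd2, the gene of cyclin D2, went the other way in 2MUT. It was at 334, 404 and 372 RPM in Control and at 483, 519.9 and 521 RPM in 2MUT, a log2 fold change of 0.46 (standard error 0.10, adjusted p = 0.0035). All 2MUT libraries were above all Control libraries, so that in the same libraries the transcript of cyclin D1 fell while that of cyclin D2 rose. With 2-HG, Ccnd2 was at 140.0, 104 and 131 RPM in 2-HG(-) and at 138, 174 and 188 RPM in 2-HG(+). The first 2-HG(+) library lay inside the range of the untreated ones, and the log2 fold change of 0.41 (95% interval 0.08 to 0.74) did not pass the threshold by limma (adjusted p = 0.058). It did pass it without that library (log2 fold change 0.54, limma adjusted p = 0.015), with median-of-ratios scaling (limma adjusted p = 0.027), with edgeR on recovered reads (adjusted p = 0.033) and with DESeq2 (adjusted p = 0.015). Without any one of the other libraries, Ccnd2 did not pass (log2 fold change 0.28 to 0.50, limma adjusted p = 0.051 to 0.17). Nor did it with quantile normalization (limma adjusted p = 0.079), a replicate block (0.097) or an unmoderated test (0.20).

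Ccnd3, the gene of cyclin D3, was at 128, 151 and 95.03 RPM in Control and at 145, 169 and 154 RPM in 2MUT. The groups overlapped through the second Control library, and the log2 fold change of 0.34 (95% interval 0.01 to 0.68) had a limma adjusted p of 0.10. Without that library it was 0.49 and passed (limma adjusted p = 0.024), whereas without the third Control library, the lowest, it was 0.16 (limma adjusted p = 0.32). With 2-HG, Ccnd3 ranged from 86.8 to 102 RPM in 2-HG(-) and from 94.2 to 101 RPM in 2-HG(+), a log2 fold change of 0.06 (95% interval -0.16 to 0.28, limma adjusted p = 0.67). A pseudogene, Ccnd3-ps, is listed in the table of the stable experiment at 5.27 to 9.32 RPM in Control and 4.95 to 10.2 RPM in 2MUT, so reads could have been split between it and Ccnd3.

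**Figure D2:**
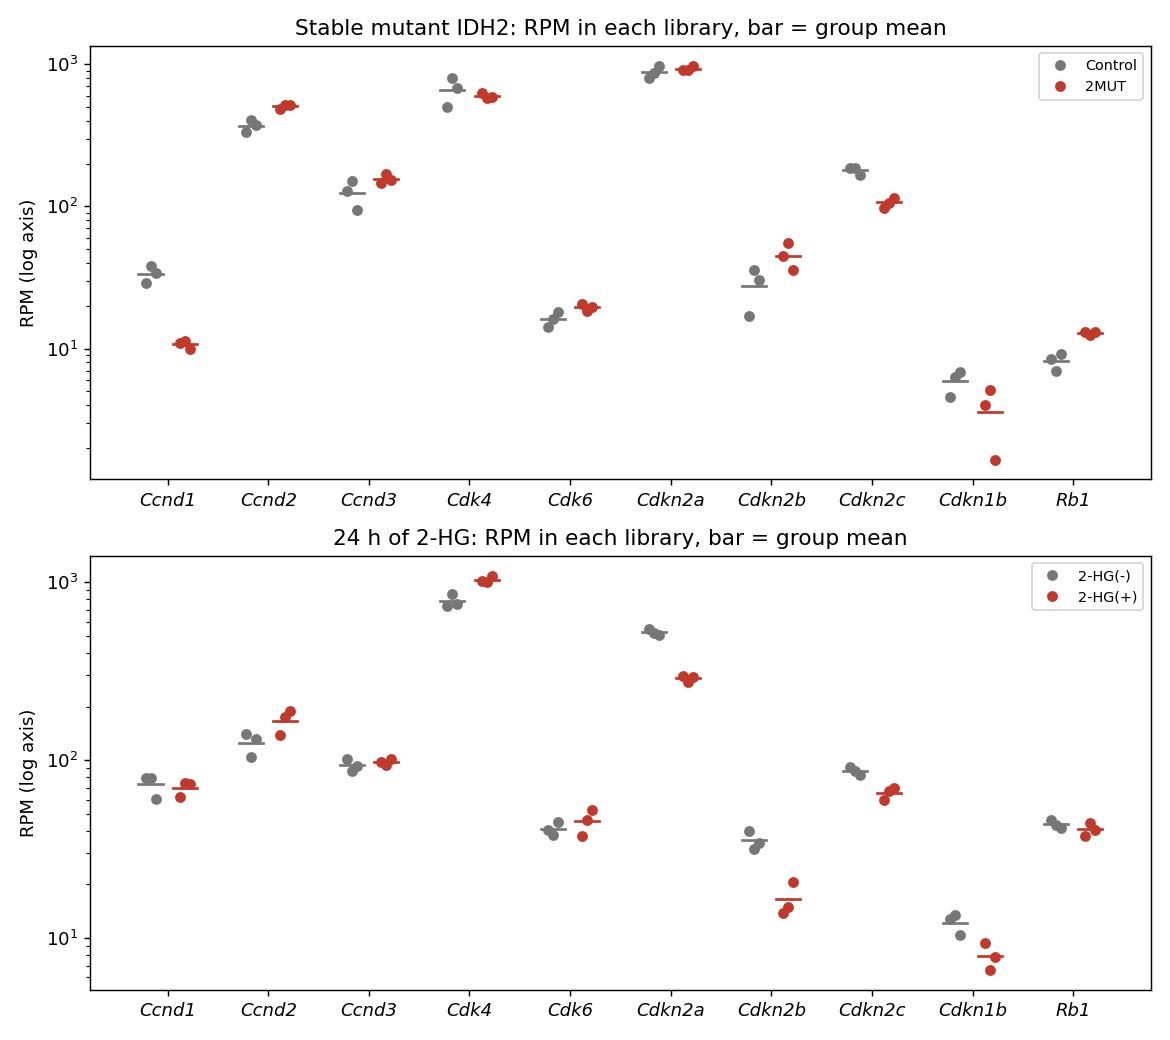
RPM of the 10 genes (log axis) in each of the 3 libraries of a group (points) with the group mean (bar), for Control and 2MUT above and for 2-HG(-) and 2-HG(+) below. Ccnd1 and Cdkn2c are separated between Control and 2MUT, and Cdkn2a, whose 2-HG(+) libraries lie at 276 to 297 RPM, is separated with 2-HG but overlaps between Control and 2MUT.

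Cdk4 and Cdk6 encode the kinases that the D-type cyclins activate. Cdk4, on chromosome 10 from 127063534 to 127067920, was at 734, 854 and 751 RPM in 2-HG(-) and at 1009, 1009 and 1085 RPM in 2-HG(+). Every 2-HG(+) library was above every 2-HG(-) library, and the log2 fold change was 0.41 (standard error 0.10, adjusted p = 0.012). Without the third 2-HG(-) library it was 0.38 and just missed the threshold (limma adjusted p = 0.055), as it did with a replicate block (limma adjusted p = 0.0501). In the stable experiment, the Control libraries of Cdk4 were spread from 501 to 796 RPM, while the 2MUT libraries lay between 579 and 623 RPM. The log2 fold change was -0.12 (95% interval -0.43 to 0.19, limma adjusted p = 0.55), it was -0.30 without the first Control library, which then passed (limma adjusted p = 0.036), and it turned to 0.031 without the second. Cdk6 was at 14.1, 16.1 and 18.05 RPM in Control and at 20.5, 18.4 and 19.5 RPM in 2MUT, groups that did not overlap, yet the log2 fold change of 0.27 (95% interval -0.07 to 0.61) did not pass (limma adjusted p = 0.20). With 2-HG, Cdk6 ranged from 38.1 to 44.9 RPM and from 37.4 to 52.3 RPM without and with the compound, a log2 fold change of 0.12 (95% interval -0.19 to 0.43, limma adjusted p = 0.54).

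The Cdk4 start is shown because Cdk4 was the one gene of the 10 called higher with 2-HG by limma. The window of 250 bases before the start of Cdk4, from RefSeq on GRCm38.p6 at chr10:127063285-127063534 on the forward strand, is given 5′ to 3′ with the E-box letters CACGTG in capitals, a sequence that MYC and other factors of its class can bind.
Cdk4: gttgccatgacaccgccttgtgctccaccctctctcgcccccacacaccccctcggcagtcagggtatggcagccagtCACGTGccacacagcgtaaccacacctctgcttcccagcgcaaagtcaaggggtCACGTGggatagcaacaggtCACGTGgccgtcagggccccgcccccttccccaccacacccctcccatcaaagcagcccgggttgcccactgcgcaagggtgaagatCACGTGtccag
There were 4 such matches in this window, of a motif that reads the same on both strands. At least 1 match was present in 6.02% of the 32851 RefSeq windows of the same length, and at least 4 in 7 of them, or 0.0213%. The cutoff of 4 is the count in the Cdk4 window itself, and other windows and motifs were also searched. The share therefore describes this window and is not a test of it. A match of letters is a description of the sequence and does not show that a factor was bound there in these cells.

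Cdkn2a and Cdkn2b lie side by side on the reverse strand of chromosome 4, Cdkn2a from 89274471 to 89294653 and Cdkn2b from 89306299 to 89311039, with 11645 bases between them. Cdkn2a has RefSeq windows at 2 starts, 12427 bases apart, the distal one opening the transcript of ARF and the proximal one that of p16. These windows and that of Cdkn2b are shown because both genes fell together with 2-HG. The 250 bases before each start, on the reverse strand of GRCm38.p6, run 5′ to 3′, at chr4:89294620-89294869 for the distal start of Cdkn2a, at chr4:89282193-89282442 for its proximal start and at chr4:89311033-89311282 for Cdkn2b. Capitals mark the letters TTTNNCGC, found in sites of E2F factors, and TGACGTCA, the full cAMP response element, both searched on both strands.
Cdkn2a, distal start: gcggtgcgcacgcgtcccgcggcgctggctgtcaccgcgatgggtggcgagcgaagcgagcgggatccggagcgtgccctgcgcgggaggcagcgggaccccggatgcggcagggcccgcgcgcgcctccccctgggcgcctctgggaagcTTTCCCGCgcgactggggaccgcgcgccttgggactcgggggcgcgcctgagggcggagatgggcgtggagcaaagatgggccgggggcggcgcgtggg
Cdkn2a, proximal start: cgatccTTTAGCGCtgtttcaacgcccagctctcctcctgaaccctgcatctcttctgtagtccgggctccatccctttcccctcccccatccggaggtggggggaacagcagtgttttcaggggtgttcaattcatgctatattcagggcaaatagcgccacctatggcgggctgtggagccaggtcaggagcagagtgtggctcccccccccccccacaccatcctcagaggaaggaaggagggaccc
Cdkn2b: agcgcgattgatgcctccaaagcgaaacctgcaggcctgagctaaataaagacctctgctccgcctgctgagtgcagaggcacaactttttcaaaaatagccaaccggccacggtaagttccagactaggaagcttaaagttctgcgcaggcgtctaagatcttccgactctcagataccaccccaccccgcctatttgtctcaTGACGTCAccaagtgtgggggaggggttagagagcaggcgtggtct
Each Cdkn2a window held 1 match to TTTNNCGC, which 4.28% of all windows contain, and the Cdkn2b window held 1 match to TGACGTCA, which 1.55% contain. The windows of Cdkn2c and Cdkn1b held no match to these letters or to CACGTG, and the Cdk6 window held 1 match each to CACGTG and TTTNNCGC. RefSeq windows were matched for 7 of the 10 genes.

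Cdkn2a had 1 entry in each experiment, and the position of its target, which may differ between them, was not available. The transcripts of p16 and ARF therefore cannot be told apart. It was at 548, 518 and 507 RPM in 2-HG(-) and at 297, 276 and 295 RPM in 2-HG(+). The groups were far apart compared with their spread, and the mean was 1.81-fold higher without 2-HG. The log2 fold change was -0.86 (standard error 0.09, adjusted p = 0.0001). In the stable experiment, Cdkn2a was at 796, 862 and 978 RPM in Control and at 909.5, 913 and 973 RPM in 2MUT. All 2MUT libraries lay within the range of Control, and the log2 fold change of 0.09 had a 95% interval from -0.12 to 0.30 (limma adjusted p = 0.49).

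Cdkn2b went down with 2-HG and up in 2MUT. With 2-HG it fell from 40.2, 31.7 and 34.2 RPM to 13.8, 14.97 and 20.6 RPM, a log2 fold change of -1.07 (standard error 0.16, adjusted p = 0.001), and the groups did not overlap. In Control it was at 17.02, 35.9 and 30.2 RPM and in 2MUT at 44.5, 55.0 and 35.8 RPM. Here the third 2MUT library was just under the second Control library, and the log2 fold change of 0.73 (standard error 0.24) passed the threshold (limma adjusted p = 0.04). The first Control library, with 115 reads on the gene, was the lowest of the 6, and without it the log2 fold change was 0.42 (limma adjusted p = 0.12). The call was also lost without the first 2MUT library (0.72, limma adjusted p = 0.093), without the second (0.57, limma adjusted p = 0.15), without a filter (limma adjusted p = 0.068), without the trend (0.088) and with an unmoderated test of each gene (adjusted p = 0.23).

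The protein-coding neighbours of the pair in the annotation are Mtap on one side and Dmrta1 on the other. Mtap, which encodes an enzyme of methionine salvage, was named by its position and not for its values. It was at 551, 475 and 549 RPM in Control and at 363, 343 and 364 RPM in 2MUT, and its log2 fold change was -0.55 (limma adjusted p = 0.001). With 2-HG, the log2 fold change of Mtap was -0.20 (95% interval -0.42 to 0.03, limma adjusted p = 0.17). Whether the changes of Mtap and of the pair are related was not tested. Dmrta1 was listed at 0 in all libraries of the stable experiment and at up to 0.18 RPM in the acute one.

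Cdkn2c, the gene of p18, on chromosome 4 from 109660876 to 109667189, was lower in both experiments. It stood at 185, 185 and 166 RPM in Control and at 98.0, 106 and 115 RPM in 2MUT. No 2MUT library reached the lowest Control library, and the log2 fold change was -0.74 (standard error 0.10, adjusted p = 0.00031). In 2-HG(-) it was at 91.5, 86.5 and 82.6 RPM and in 2-HG(+) at 60.0, 67.2 and 69.8 RPM, again without overlap. That log2 fold change was -0.40 (standard error 0.10, adjusted p = 0.014), and it was -0.36 without the first 2-HG(-) library, where the call was lost (limma adjusted p = 0.051), as it was with a replicate block (limma adjusted p = 0.058). Cdkn2d encodes the remaining INK4 protein, p19, and belongs to a list described further on; it was singled out after its values were seen. It fell by 0.83 on the log2 scale in 2MUT (limma adjusted p = 0.00023) and rose by 0.39 with 2-HG (limma adjusted p = 0.02).

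Cdkn1b, the gene of p27, on chromosome 6 from 134920401 to 134925513, had the fewest reads of the 10 genes. With 2-HG it went from 12.7, 13.4 and 10.4 RPM to 9.39, 6.61 and 7.78 RPM. The groups did not overlap, and the log2 fold change was -0.57 (standard error 0.16, adjusted p = 0.022). This call was lost without the first 2-HG(-) library (limma adjusted p = 0.07), the second 2-HG(-) library (0.066), the second 2-HG(+) library (0.089) or the third (0.052), with log2 fold changes from -0.56 to -0.46 in these fits. It was also lost without a filter (limma adjusted p = 0.057), with quantile normalization (0.052) and with an unmoderated test of each gene (0.085). In the stable experiment Cdkn1b was at 4.59, 6.27 and 6.84 RPM in Control and at 4.02, 5.12 and 1.65 RPM in 2MUT. The third 2MUT library held 12 reads on the gene, and the log2 fold change was -0.66 (95% interval -1.32 to 0.01, limma adjusted p = 0.12) with it and -0.30 without it.

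Rb1, the gene of the retinoblastoma protein, on chromosome 14 from 73183673 to 73325822, was at 8.43, 6.98 and 9.16 RPM in Control and at 13.1, 12.4 and 13.1 RPM in 2MUT. The groups did not overlap, the mean was 1.57-fold higher in 2MUT and the log2 fold change was 0.60 (standard error 0.17, adjusted p = 0.02). The gene had between 49 and 95 reads per library. The direction held with each library left out, but the adjusted p by limma rose to 0.063 without the second Control library and to between 0.0501 and 0.061 without any one of the 2MUT libraries, and was 0.052 without a filter. With 2-HG, Rb1 was at 46.2, 42.9 and 41.7 RPM without the compound and at 37.7, 44.1 and 40.6 RPM with it. These groups overlapped, and the log2 fold change was -0.10 (95% interval -0.34 to 0.15, limma adjusted p = 0.53).

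Whether the change of a gene differed between the experiments was tested as the difference between the 2MUT change and the 2-HG change, over all 12 libraries; the comparisons share no library. Of all 9610 genes tested in both, 39.4% passed this test, and of the 10 genes 5 did. A limit of the test is that a gene's amplified target may not have been the same in both experiments. The 2MUT change was higher than the 2-HG change for Cdkn2b by 1.80 (95% interval 1.07 to 2.52), for Cdkn2a by 0.95 (0.67 to 1.22) and for Rb1 by 0.70 (0.32 to 1.07), in log2 units. It was lower for Ccnd1, with a difference of -1.50 (95% interval -1.92 to -1.07), and for Cdk4, with -0.53 (-0.94 to -0.12). The limma adjusted p-values were 5.3e-05 for Ccnd1, 6.4e-05 for Cdkn2a, 0.00093 for Cdkn2b, 0.0063 for Rb1 and 0.042 for Cdk4, and the call for Cdk4 was lost in 15 of 22 alternatives, 10 of them among the 12 fits that left out a library (adjusted p up to 0.095). For Cdkn2c, the difference was -0.34 (95% interval -0.65 to -0.04, adjusted p = 0.068 by limma), and it passed in 5 of 22 alternatives, among them median-of-ratios scaling (adjusted p = 0.038) and the fits without the third Control, the third 2MUT or the first 2-HG(+) library (adjusted p = 0.04 to 0.049). The intervals were -0.36 to 0.45 for Ccnd2, -0.15 to 0.71 for Ccnd3, -0.25 to 0.57 for Cdk6 and -0.88 to 0.71 for Cdkn1b, all of which include 0 and also differences in either direction.

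Most genes on a list of E2F targets were lower in 2MUT and higher with 2-HG. The 24 genes, among them those of the replication helicase, of nucleotide synthesis enzymes and of replication factors, had 21 tested members in the stable experiment, of which 18 were lower and 0 were higher in 2MUT by limma, with a median log2 fold change of -1.16, where 17.3% of all genes were lower. Rrm1, Gins1 and Chek1 did not pass in 2MUT, with log2 fold changes of -0.38, -0.51 and 0.01, and Slbp did not pass with 2-HG, at 0.10; these were named after their values were seen. The summed level of the list was 928 to 1125 RPM in Control and 357 to 442 RPM in 2MUT. With 2-HG, 22 of 23 tested members were higher and 0 lower, against 16.1% and 16.7% of all genes, with a median of 1.06 and a sum of 912 to 933 RPM in 2-HG(-) and 1642 to 1763 RPM in 2-HG(+). The largest falls in 2MUT were in Cdt1 (-2.28), a licensing factor of replication origins, and in Uhrf1 (-2.11), which maintains DNA methylation. The largest rises with 2-HG were in Mybl2 (1.56), a cell cycle transcription factor, and in Rrm2 (1.34), a subunit of ribonucleotide reductase. All 21 members tested in both had a lower change in 2MUT than with 2-HG by limma's test of the difference. Of all genes, 39.4% passed this test, counting both directions together.

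Mitotic genes followed the E2F target genes. Of 9 tested, 9 were lower in 2MUT, with a median log2 fold change of -2.06, and 8 were higher with 2-HG, with a median of 0.84, where 17.3% of all genes were lower in 2MUT and 16.1% higher with 2-HG. Their summed level fell from 692 to 823 RPM in the Control libraries to 169 to 199.7 RPM in the 2MUT libraries, and rose from 376 to 407 RPM in 2-HG(-) to 621 to 723 RPM in 2-HG(+). Cdc20, an activator of the anaphase-promoting complex, and Mki67, a marker of cycling cells, had the largest falls, of 2.26 and 2.17 on the log2 scale. The largest rises with 2-HG were in Bub1 (1.10), a spindle checkpoint kinase, and Aurkb (1.00), the gene of Aurora B. The part of the share of dividing cells in the values of the 10 genes was not tested.

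**Figure D3:**
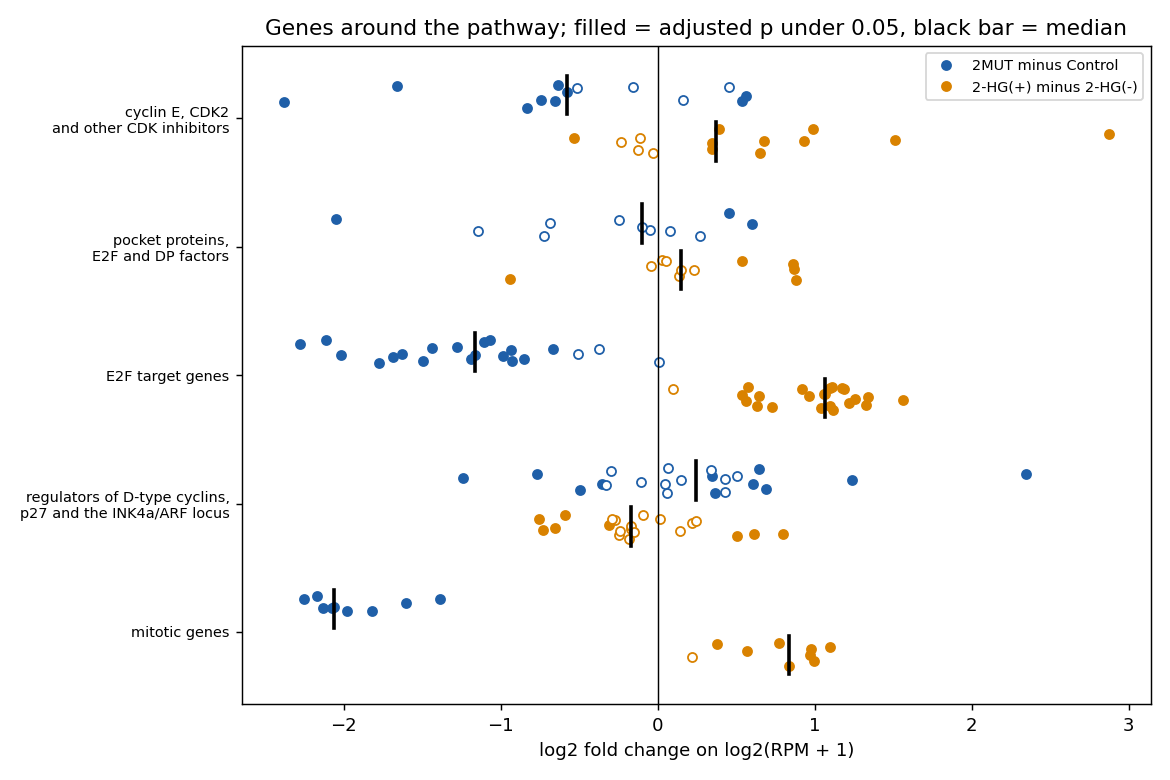
Log2 fold change (x axis, on log2(RPM + 1)) of each tested gene of 5 lists around the pathway, in blue for 2MUT minus Control and in orange for 2-HG(+) minus 2-HG(-), with the list's median as a black bar and filled points for an adjusted p under 0.05. The E2F target genes have medians of -1.16 and 1.06 and the mitotic genes of -2.06 and 0.84, on opposite sides of 0, while the list of regulators has genes on both sides in both comparisons.

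Cyclin E, CDK2 and the other inhibitors and activators formed a list of 14 genes. In 2MUT, 2 of 13 tested were higher and 7 lower by limma, and with 2-HG 9 of 14 were higher and 1 was lower, where 16.5% and 17.3% of all genes were called higher and lower in 2MUT and 16.1% and 16.7% with 2-HG. Ccna2, the gene of cyclin A2, had the largest fall in 2MUT (-2.38) and rose by 0.99 with 2-HG. Ccne2, one of the genes of cyclin E, rose by 1.51 with 2-HG, and its log2 fold change of -0.52 in 2MUT did not pass (limma adjusted p = 0.094). Ccne1, the other, was named after its values were seen. It fell by 0.63 in 2MUT and rose by 0.68 with 2-HG (limma adjusted p = 0.034 and 0.0054). The genes higher in 2MUT were Ccnh (0.56), a subunit of the CDK-activating kinase, and Fbxw7 (0.54), which targets cyclin E for degradation. Cdkn1c, the gene of p57, fell in both, by 1.66 in 2MUT and by 0.53 with 2-HG, at mean levels of 0.66 to 5.13 RPM. It is the gene counted as lower with 2-HG, a count that was 0 with any library of the acute experiment left out. The count of higher genes in 2MUT was 1 without the second Control library and 0 without the first Control library or any one of the 2MUT libraries. Cdkn1a, the gene of p21, rose by 2.88 with 2-HG, its mean being 5.56 ± 0.65 RPM in 2-HG(-) and 57.7 ± 47.8 RPM in 2-HG(+) (SD, n = 3 each). The first 2-HG(+) library stood at 113 RPM and the others at 30.003 and 30.3 RPM.

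Among the pocket proteins, E2F and DP factors, 2 of 11 tested genes were higher and 1 lower in 2MUT, and 4 of 11 were higher and 1 lower with 2-HG. The 2MUT counts are close to the 16.5% and 17.3% of all genes called higher and lower, and with 2-HG these shares were 16.1% and 16.7%. In 2MUT, the count of higher genes was 0 without the first 2MUT library and 1 without any other library, and that of lower genes was 4 without the third Control library, 3 with quantile normalization, without the trend or with edgeR, and 2 without a filter. Rbl2, which encodes the RB relative p130 that is abundant in resting cells, rose by 0.46 in 2MUT and fell by 0.94 with 2-HG (limma adjusted p = 0.02 and 0.0015). E2f3, an activating E2F, rose by 0.60 in 2MUT (limma adjusted p = 0.039), and its log2 fold change with 2-HG was 0.03 (limma adjusted p = 0.86). E2f7, an inhibitory E2F, fell by 2.05 in 2MUT and rose by 0.86 with 2-HG. E2f8 and Tfdp1, the latter a partner of E2F proteins, rose by 0.88 and 0.87 with 2-HG.

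Regulators of the D-type cyclins, of p27 and of the Cdkn2a locus were counted as a list of 22 genes, of which 7 were higher and 4 lower in 2MUT, and 3 of 21 were higher and 5 lower with 2-HG (limma). Over all genes, 16.5% were higher and 17.3% lower in 2MUT, and 16.1% higher and 16.7% lower with 2-HG, and apart from the 7 the counts are close to these shares. The 7 became 4 without the first Control library and 3 without the third 2MUT library, and the 5 became 3 without the first or the third 2-HG(-) library or the second 2-HG(+) library. Myc rose by 0.80 with 2-HG, its mean being 77.8 ± 0.773 RPM in 2-HG(-) and 137 ± 21.3 RPM in 2-HG(+) (SD, n = 3 each), while in 2MUT its log2 fold change of -0.30 did not pass (limma adjusted p = 0.12). Jun rose by 0.62 with 2-HG and fell by 0.35 in 2MUT. Junb, which encodes an AP-1 factor known to act on the genes of p16 and cyclin D1, fell by 1.24 in 2MUT and by 0.73 with 2-HG. Ezh2, a Polycomb gene whose product represses the Cdkn2a locus, fell by 0.77 in 2MUT and rose by 0.50 with 2-HG (limma adjusted p = 0.0065 and 0.03). Cbx7, another Polycomb gene, fell by 0.75 with 2-HG, and its log2 fold change of -0.33 in 2MUT did not pass (limma adjusted p = 0.13). Cryab, the gene of αB-crystallin, an adaptor in the turnover of cyclin D1, rose by 2.35 in 2MUT, from 36.4 ± 0.404 RPM to 189.9 ± 17.6 RPM (SD, n = 3 each), and fell by 0.31 with 2-HG (limma adjusted p = 0.031). Ets2 rose by 1.24 in 2MUT, and its log2 fold change of 0.24 with 2-HG did not pass (limma adjusted p = 0.38).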

How the data were processed

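Ion AmpliSeq libraries, which amplify a short target of each transcript, were sequenced. The authors aligned reads to the AmpliSeq mouse transcriptome with TMAP, used the AmpliSeqRNA plug-in for counting and deposited RPM, 1 table an experiment; no genome build is given in the sources used here. Dividing RPM by the step of a single read gave whole reads (100% of values within 0.1 read) and so the depths. Tables list different entries, so changes were computed within a table. limma 3.58.1 in R 4.3.3 was fitted to log2(RPM + 1) of genes whose mean reached 1 RPM (11065 and 10384 genes), with a mean-variance trend and Benjamini-Hochberg adjustment over all of them, at a threshold of 0.05. Named were the 10 genes, list genes from among the 2 largest called rises and falls per list and comparison, with their value in the other comparison where it is given, and the 3 genes most similar to a gene called in both comparisons; others are named as such. The genes and lists were chosen with earlier results of these data known. The replicate libraries differed by more than sampling noise (chi-square at least 5.88 times its degrees of freedom). Alternatives were another added value, other filters and scalings, no trend, an unmoderated test, edgeR 4.0.16, DESeq2 1.42.0, a replicate block and each library left out. Positions come from GENCODE M21 on GRCm38 and promoter windows from RefSeq on GRCm38.p6. The code of the fits was checked on simulated reads, with the same spread for all genes and fewer changed genes than were called here. That check does not measure error rates in these data. Tables were handled with pandas 2.3.3 and plots drawn with matplotlib 3.10.9.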

Additional observations from a re-analysis of the deposited data

Results flagged for a closer look

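The changes of 5 of the 10 genes differed between the stable and the acute experiment by limma's test of the difference, which 39.4% of all 9610 genes tested also passed. In log2 units, the 2MUT change minus the 2-HG change was -1.50 for Ccnd1, where Ccnd1 fell in 2MUT and the change with 2-HG was -0.05. It was 1.80 for Cdkn2b, with 0.73 in 2MUT and -1.07 with 2-HG, and 0.95 for Cdkn2a, with 0.09 and -0.86. For Rb1 it was 0.70, with 0.60 and -0.10, and for Cdk4 it was -0.53, with -0.12 and 0.41, a call lost in 10 of the 12 fits that left out a library. It is not known whether the amplified target of each gene was the same in both experiments. Groups had 3 libraries, so single libraries were not screened as outliers.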

How the results depend on the processing

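Of 538 values of the 10 genes under alternatives, 479 kept their direction and side of the threshold, 37 lost and 11 gained the call, and 11 turned sign, each of the last without 1 library and none of them past the threshold. These were Cdk4 in 2MUT (from -0.12, to between -0.30 and 0.031), Ccnd1 with 2-HG (between -0.19 and 0.027), and the differences for Ccnd2 (between -0.081 and 0.18) and Cdkn1b (between -0.33 and 0.27). The number of the 10 genes higher in 2MUT was 1 in place of 3 without a filter, 2 without the trend or with the unmoderated test, and 1 to 3 without 1 library, being 1 without the first or the second 2MUT library. The number lower in 2MUT was 2 to 3 without 1 library. With 2-HG, the number higher was 2 in place of 1 with median-of-ratios scaling, with edgeR and with DESeq2, and 0 to 2 without 1 library; it was 0 without the third 2-HG(-) library and 2 without the first 2-HG(+) library. The number lower was 3 in place of 4 without a filter, with quantile normalization or with the unmoderated test, and 2 to 4 without 1 library, being 2 without the first 2-HG(-) library. The number that differed between the experiments was 6 in place of 5 with median-of-ratios scaling, 4 without a filter, with quantile normalization or without the trend, and 4 to 5 without 1 library. The unmoderated test called 2244 genes in 2MUT and 2237 with 2-HG in place of 3741 and 3405, and fits without 1 library called 2755 to 3806 and 2356 to 3259. The replicate numbers do not pair the libraries, since same-numbered libraries had correlations of deviations from 0.03 to 0.07 in the stable experiment and from -0.46 to 0.06 in the acute one. With a replicate block, 4 genes differed between the experiments, 0 of the 10 genes were higher with 2-HG in place of 1 and 3 lower in place of 4, and 3898 and 2503 of all genes were called. Over alternatives added for the lists after the data were seen, 15 to 18 E2F target genes were lower in 2MUT and 17 to 22 higher with 2-HG. The cause of these shifts was not tested. A level of 3 reads was 0.41 to 0.464 RPM in the stable and 0.163 to 0.201 RPM in the acute experiment, and 1 of the 2MUT libraries held 12 reads on Cdkn1b.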

Other observations

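Of the 10 genes, Cdkn2b and Cdkn2c were called in both experiments, and the genes most like them over the 12 libraries, each table centred on its own mean, were ranked among 9600 genes. For Cdkn2b these were Rcn3 (Pearson's r = 0.97), Foxn3 (0.97) and Rbm5 (0.96), with log2 fold changes of 0.49, 0.28 and 0.53 in 2MUT and -0.76, -0.64 and -0.50 with 2-HG. For Cdkn2c they were Myl9 (0.98), which encodes a myosin light chain, Capn6 (0.98) and Plin3 (0.97), with log2 fold changes of -1.45, -1.27 and -0.52 in 2MUT and -0.87, -0.91 and -0.33 with 2-HG. The points share libraries and follow 4 group means, and the genes were picked as the most alike, so these values describe the ranking only.

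Pcna and Ccnb1, genes of dividing cells that belonged to the lists, were listed at 0 in all 6 libraries of the stable experiment, in which other genes of their lists had reads, and their level was not analysed here.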
